A study of Mus musculus with 18 samples.

Results

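The E proteins and their inhibitors were followed through 9 genes: the inhibitors Id1, Id2 and Id3, the E-protein genes Tcf3, Tcf12 and Tcf4, and Lyl1, Tal1 and Lmo2, which act with or against E proteins. A gene's members were all probe sets (groups of short array oligonucleotides that together give 1 signal) whose platform annotation names that gene alone. There were 22 such probe sets of 45037 on the array after control features were set aside. Of the 22, 20 passed the filter on low signals and were tested. The others were 1 Id2 probe set (1453596_at) and 1 Tcf4 probe set (1416725_at), whose signals reached at most 153 and 124 on any array.

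RNA came from thymocytes or tumour masses of 18 mice, which the series' design text calls independent, and each RNA was hybridised to 1 Affymetrix Mouse 430 array. Lymphomas came from 8 CD4Cre-ctnnbex3 mice that had developed tumours. The group called before transformation came from the thymus of 5 CD4Cre-ctnnbex3 mice without a lymphoma. The control group came from the thymus of 5 mice, which the design text calls LckCre and the sample labels call wild type, so whether the controls carry a Cre transgene is not settled here. In CD4Cre-ctnnbex3 mice, Cre driven by Cd4 regulatory sequences removes an exon of Ctnnb1 in developing T cells, which leaves a beta-catenin protein that resists degradation. Age was not given. The 3 groups are compared in pairs, and the comparisons therefore share arrays.

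E proteins are basic helix-loop-helix transcription factors that bind E boxes in DNA as dimers. Tcf3 encodes E2A (E12 and E47), Tcf12 encodes HEB and Tcf4 encodes E2-2. They are distinct from the TCF/LEF partners of beta-catenin despite the shared symbols. In the thymus E2A and HEB drive T-lineage genes, antigen-receptor rearrangement and the checkpoint at the double-positive stage. Id proteins lack the DNA-binding basic region and hold E proteins in dimers that cannot bind DNA. T-cell receptor signals raise Id3 through Egr factors, which relieves the block that E proteins place on maturation. Lyl1 and Tal1 are helix-loop-helix proteins that also pair with E proteins, and Lmo2 is a LIM-domain adaptor that joins such pairs with other factors. Their misplaced expression in T-cell precursors is a known route to T-cell leukaemia.

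The 250 bases upstream of a RefSeq transcription start are shown for 4 genes. Id2 and Id3 fell together, Tcf3 rose before transformation and Lyl1 was higher in lymphomas. The Tcf3 window lies wholly within the annotated gene (chr10:80409541-80433976). The Lyl1 window runs into the annotated gene, which begins at chr8:84701423. Both therefore precede a start inside the gene, not its outermost one. The windows are RefSeq sequences of build GRCm38.p6, read 5′ to 3′ on the gene's strand. Capitals mark matches to an E box (CANNTG), the DNA letters that E-protein dimers bind, or to the TCF/LEF core (CTTTGA), on either strand. Id2 lies on the minus strand at chr12:25096093-25096342, Id3 on the plus strand at chr4:136143572-136143821, Tcf3 on the minus strand at chr10:80433636-80433885 and Lyl1 on the plus strand at chr8:84701207-84701456.
Id2: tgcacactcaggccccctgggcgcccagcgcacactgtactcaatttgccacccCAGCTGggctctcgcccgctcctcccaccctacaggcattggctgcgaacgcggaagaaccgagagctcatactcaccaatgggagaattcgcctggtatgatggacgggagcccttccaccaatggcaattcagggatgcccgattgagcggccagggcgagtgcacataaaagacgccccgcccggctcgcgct
Id3: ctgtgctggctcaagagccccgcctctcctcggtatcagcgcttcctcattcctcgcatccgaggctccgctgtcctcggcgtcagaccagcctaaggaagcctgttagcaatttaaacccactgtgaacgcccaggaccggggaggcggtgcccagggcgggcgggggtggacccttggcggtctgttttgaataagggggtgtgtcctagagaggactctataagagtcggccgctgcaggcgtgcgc
Tcf3: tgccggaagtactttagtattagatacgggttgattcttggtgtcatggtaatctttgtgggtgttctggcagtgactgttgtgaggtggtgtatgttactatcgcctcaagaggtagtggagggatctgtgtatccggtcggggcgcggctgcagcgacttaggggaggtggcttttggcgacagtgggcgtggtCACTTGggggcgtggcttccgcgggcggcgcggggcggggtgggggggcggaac
Lyl1: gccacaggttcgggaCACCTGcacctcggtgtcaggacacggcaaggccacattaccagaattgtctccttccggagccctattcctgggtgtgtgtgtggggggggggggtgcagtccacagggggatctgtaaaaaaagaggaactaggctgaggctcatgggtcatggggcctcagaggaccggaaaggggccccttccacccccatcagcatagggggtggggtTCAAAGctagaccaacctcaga
The Id2 window held 1 E box at position -196 from the start, the Tcf3 window 1 at position -54 and the Lyl1 window 1 at position -235. The Lyl1 window also held the TCF/LEF core, on the reverse strand, at position -22, in the part inside the annotated gene. Among windows not shown, a Tal1 window held the core too, at position -201, though Tal1 passed in no comparison. No Tcf12 window held it. The Id3 window held none of these letters, and none of the 4 windows held an EGR motif (GCGNGGGCG). Among 32851 promoters of the same length, 66.2% held an E box, 13.8% the TCF/LEF core and 4.7% the EGR motif. The 3 motifs do not overlap in these windows, and a match describes the letters only. RefSeq promoters were matched for 6 of the 9 genes.

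Median signals of the arrays lay between 125 and 166. The lymphoma arrays stood apart in the array's spike-in controls, whose mean log2 signal was 9.95 to 10.68 in lymphomas, 10.74 to 11.24 before transformation and 10.75 to 11 in controls. The part of this difference in the lymphoma comparisons was not tested. T-cell markers were high in all 18 mice, which fits the labelled tissue. The summed signal of 7 T-cell markers was 17055 to 26949 in lymphomas, 35263 to 55146 before transformation and 40779 to 46090 in controls. All 7 were lower in lymphomas than in both other groups. In RNA from a mix of cells, fewer cells of a type and less RNA per cell cannot be told apart. The sources name thymocytes or tumour masses, so preparation may differ between thymi and lymphomas. Such a difference would go with group and cannot be told apart from it. By the signals of Xist and the Y-linked Eif2s3y, all 5 mice before transformation were male, the controls were 2 females and 3 males, and the lymphomas were 6 females, 1 male (lymphoma 3) and 1 tumour, lymphoma 4, with both signals. Sex and group are therefore nearly inseparable between lymphomas and mice before transformation. In a fit with a sex term that left out lymphoma 4, that comparison rested on lymphoma 3 for the sex term and no member probe set passed. Among thymi before transformation, mouse 3 stood apart. It had the group's highest B-cell (2351), myeloid (4645) and granulocyte (1624) marker sums and its lowest T-cell sum (35263). Results that turn on mouse 3 are given with and without it. Mice numbered 1 and 2 deviated from their group means in a like way across groups (mean correlation 0.203 over all probe sets). The labels do not call them a batch, and values within mice 1 and 2 and within mice 3 and up are given beside member results that passed. Genes of the other lists were not refitted within these sets.

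Before transformation, the inhibitors Id3 and Id2 were lower than in controls, the E-protein gene Tcf3 was higher and Tcf4 was lower. Tcf12 and the Lyl1, Tal1 and Lmo2 group did not pass. A probe set is said to have risen or fallen, or to have passed, where its limma p-value, adjusted over all 29947 probe sets tested, was under 0.05. Of the 20 member probe sets, 11 passed, against 10.4% of all probe sets tested. Of these, 3 were higher, against 4.48% of all, and 8 were lower, against 5.91% of all. The groups did not overlap for 10, against 10.2% of all: 3 were higher (4.42% of all) and 7 lower (5.77% of all). Between lymphomas and mice before transformation, 9 of 20 passed, against 36.7% of all, with 3 higher (14.7% of all) and 6 lower (22% of all). Of the 20, 4 did not overlap, against 16.9% of all, 1 higher (6.07%) and 3 lower (10.8%). Between lymphomas and controls, 13 passed, against 40.9% of all, with 5 higher (15.6% of all) and 8 lower (25.4% of all). Of the 20, 9 did not overlap, against 19.9% of all, 5 higher (7.12%) and 4 lower (12.8%). The median log2 difference of the 20 was -0.034, -0.018 and -0.57 in these comparisons in turn, against -0.013, -0.072 and -0.073 over all probe sets tested. The counts include several probe sets for 1 gene, and Lmo2, Lyl1 and Id1 passed the filter mainly through lymphomas (8, 8 and 7 lymphomas above it, against 0, 0 and 1 control). They are therefore no support for a shift of the members as a set.

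**Figure D1:**
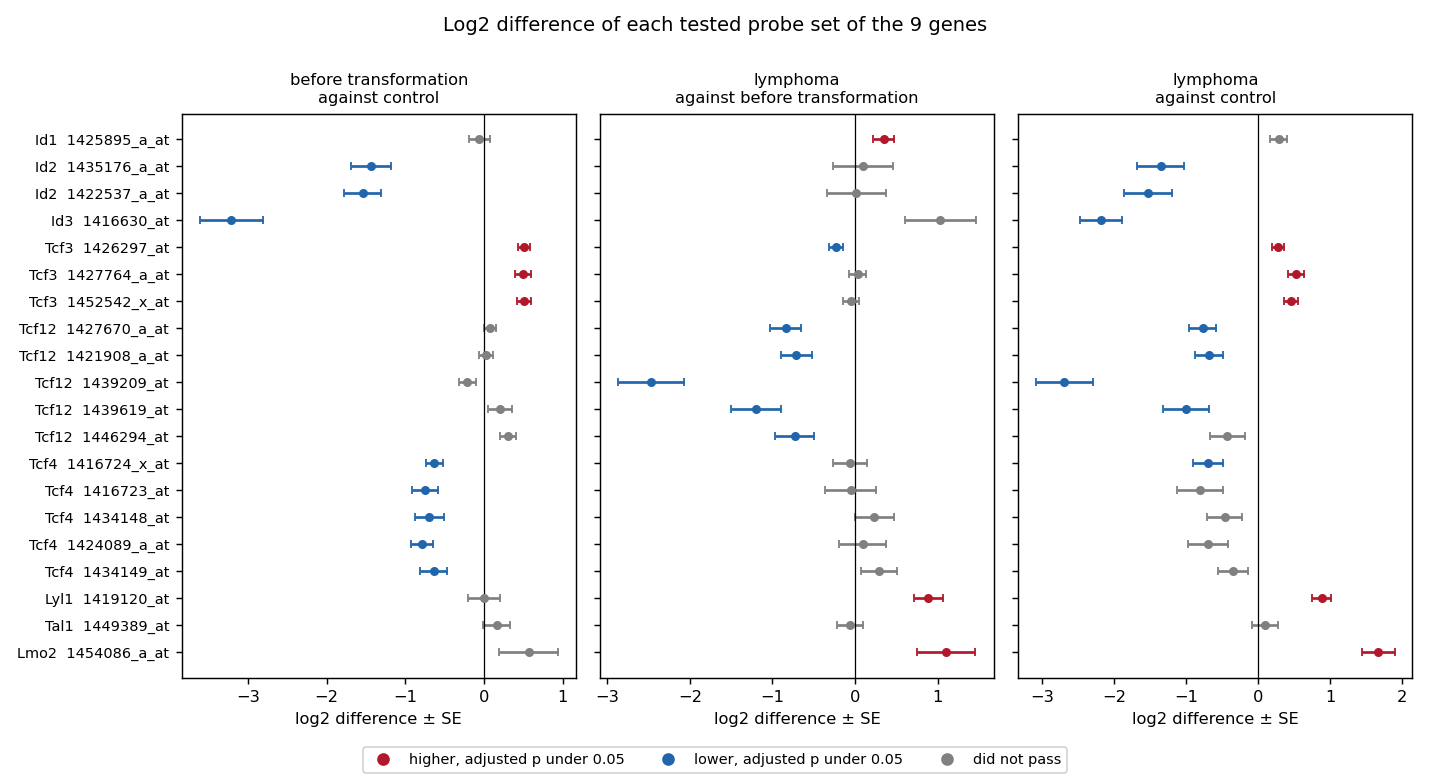
Log2 difference ± SE (x axis) of each of the 20 tested probe sets (y axis, gene and probe-set ID) in the 3 comparisons; colour gives the limma call. Id2, Id3 and Tcf4 lie left of 0 before transformation, the 5 Tcf12 probe sets lie left of 0 in lymphomas against mice before transformation, and Lyl1 and Lmo2 lie right of 0 in lymphomas.

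Id3, the inhibitor induced by T-cell receptor signals, showed the largest difference of the 20 probe sets before transformation. Its signal was 67.8, 95.1, 463, 135 and 110 in mice 1 to 5 before transformation, against 1301, 1187, 1198, 1286 and 1276 in controls 1 to 5. Every mouse before transformation lay below every control, and 4 of the 5 lay under 140 while mouse 3 stood well above them. Id3 was 9.27-fold lower before transformation (log2 difference -3.21 ± 0.40 SE, n = 5 each, limma adjusted p = 0.000286). Without mouse 3 the log2 difference was -3.66 (adjusted p = 7.56e-07). It was -3.95 within mice 1 and 2 (adjusted p = 0.00183), -2.72 within mice 3 and up (adjusted p = 0.0163) and -3.22 in male mice alone (adjusted p = 0.00463).

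Lymphomas also had less Id3 than controls. Their Id3 signal ran from 113 (lymphoma 1) through a median of 289 to 527 (lymphoma 4), below all controls. Id3 was 4.53-fold lower in lymphomas than in controls (log2 difference -2.18 ± 0.30 SE, n = 8 and 5, adjusted p = 4.86e-05). Within mice 1 and 2 the difference was -2.44 (adjusted p = 0.0504), and within mice 3 and up it was -2.09 (adjusted p = 0.000556). Lymphomas and mice before transformation overlapped. Their log2 difference was 1.03 ± 0.43 SE and did not pass (adjusted p = 0.0743), but without mouse 3 before transformation it was 1.48 (adjusted p = 0.00622) and without lymphoma 1 it was 1.22 (adjusted p = 0.0287). With all mice kept it passed under quantile normalization (1.11, adjusted p = 0.0449) and median centring (1.12, adjusted p = 0.0494). It also passed with all 3 groups in 1 fit (adjusted p = 0.0353) and with mouse number as a block (1.17, adjusted p = 0.04). In 20 of 26 alternatives it did not pass.

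Id2, the inhibitor known for its role in innate lymphoid and NK cells, was measured by 2 tested probe sets that moved together. The leading one, 1435176_a_at, had signals of 144, 90.9, 256, 127 and 200 in mice 1 to 5 before transformation, against 465, 406, 333, 362 and 547 in controls 1 to 5. The groups did not overlap, and mouse 3 was again the highest before transformation. Id2 was 2.71-fold lower before transformation on this probe set (log2 difference -1.44 ± 0.25 SE, adjusted p = 0.00327) and 2.92-fold lower on 1422537_a_at (-1.54 ± 0.23 SE, adjusted p = 0.00106). The second probe set had signals of 114, 101, 202, 80.6 and 133 in mice 1 to 5 before transformation, against 440, 406, 262, 316 and 355 in controls 1 to 5, again without overlap and with mouse 3 the highest before transformation. Within mice 3 and up neither passed, with log2 differences of -1.12 (adjusted p = 0.0634) and -1.25 (adjusted p = 0.058). Within mice 1 and 2 they differed by -1.93 and -1.98 (adjusted p = 0.0177 and 0.00476).

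In lymphomas Id2 ran from 92.1 through a median of 166 to 406 on the leading probe set, and lymphoma 8 was the highest on both. Lymphoma 8 reached the level of the controls, and the groups overlapped on this probe set. Id2 was 2.54-fold lower in lymphomas than in controls (log2 difference -1.35 ± 0.33 SE, adjusted p = 0.00427). On 1422537_a_at it ran from 52.0 through a median of 120.4 to 256 in lymphomas, all below the controls (-1.53 ± 0.33 SE, adjusted p = 0.00203). Within mice 1 and 2 neither probe set passed against controls (-1.60 and -1.64, adjusted p = 0.0506 and 0.0605), and within mice 3 and up both did (-1.24 and -1.40, adjusted p = 0.0448 and 0.0247). Lymphomas did not pass against mice before transformation, with a log2 difference of 0.094 ± 0.36 SE (adjusted p = 0.863). Markers of NK and gamma-delta T cells, which also carry Id2, did not pass before transformation against controls (0 of 6 genes) and were lower in lymphomas than in controls in 3 of 6. Their summed signal was 742 to 1309 in lymphomas, 757 to 1527 before transformation and 1109 to 1656 in controls. Among them, Nkg7 ran from 133 to 278 in lymphomas and from 150 to 378 before transformation, below the 400 to 604 of controls. Klrk1, Ncr1 and Sox13 overlapped controls in both groups. No marker of that list was at the floor in a whole group, and its part in the Id2 result was not tested. Granulocyte markers fell beside Id2 and Id3 before transformation, 5 of 5, with sums of 695 to 1624 against 2741 to 9246 in controls. They were also lower in lymphomas than in controls, 5 of 5, with sums of 952 to 3286 in lymphomas. Of these, Camp was at the floor in every mouse before transformation. Their part in the Id results was not tested.

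Id1, the third inhibitor, was low in every mouse. Its signal ran from 105 through a median of 121 to 139 in lymphomas, from 74.0 through 98.1 to 106 before transformation and from 83.1 through 102 to 109 in controls. The ranges touched or overlapped in each pair. Id1 entered the test through lymphomas, with 7 of them above the filter, against 0 mice before transformation and 1 control. In lymphomas against mice before transformation its log2 difference was 0.35 ± 0.13 SE (adjusted p = 0.0456, and 0.0307 with no filter). It passed neither within mice 1 and 2 (0.59, adjusted p = 0.13) nor within mice 3 and up (0.23, adjusted p = 0.157). The call was also lost when any of lymphomas 1, 2, 4, 5, 7 or 8 or mice 1, 2, 4 or 5 before transformation was left out (adjusted p 0.0515 to 0.116). Nor did it hold with the floor at the 10th percentile (adjusted p = 0.0562) or with an offset of 50 in place of the floor (0.23, adjusted p = 0.0592). With 1 probe set per gene the adjusted p was 0.0501. Before transformation Id1 differed from controls by -0.061 on the log2 scale (adjusted p = 0.876), and lymphomas differed from controls by 0.29 (adjusted p = 0.0708, and 0.0384 with no filter).

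**Figure D2:**
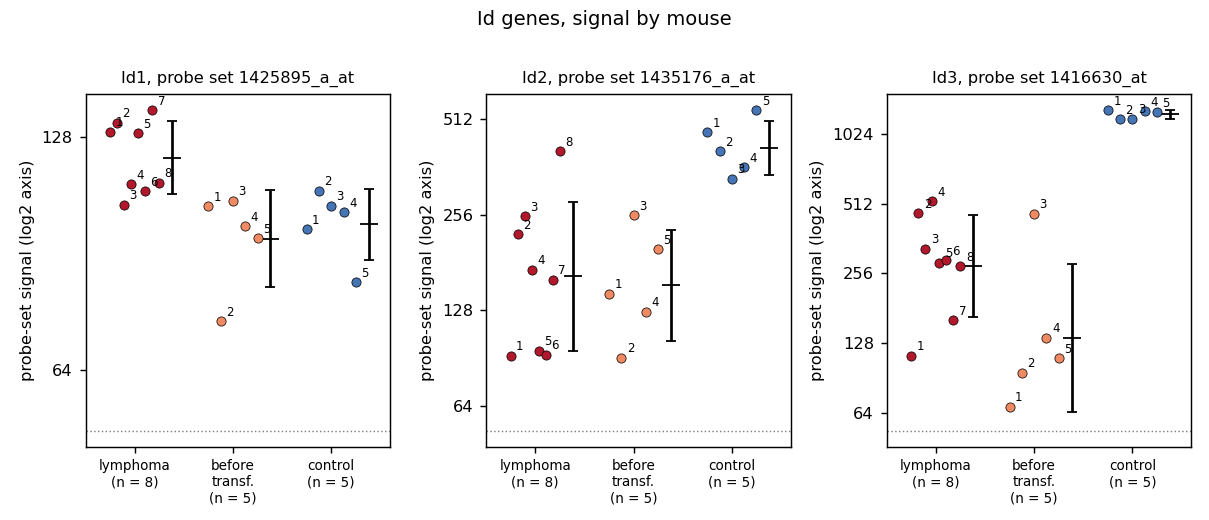
Signal of the leading probe set of Id1, Id2 and Id3 in each mouse (log2 axis), with the mouse number beside each point, the group mean of log2 signal and its SD as bars, and the floor as a dotted line. All mice before transformation and all lymphomas lie below the controls for Id3, with mouse 3 before transformation at 463 against 67.8 to 135 in the others.

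Across the 18 arrays, the genes most like Id3 in log2 signal were Ifi27l2a (Pearson r = 0.94), S1pr4 (0.92), Irf2bpl (0.91), Cldn4 (0.90) and Ifi27l2b (0.90). Those most like Id2 were Irgm1 (0.92), Ifit1bl1 (0.91), Lfng (0.90), Retreg1 (0.89) and Cd53 (0.89). They were ranked among 14018 genes. The arrays fall into 3 groups that differ in many probe sets, so the correlations carry the group differences and are given as a description.

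Tcf3, the E2A gene, moved the opposite way to Id2 and Id3 before transformation. Its leading probe set, 1426297_at, had signals of 1913, 1733, 1580, 1908 and 1866 in mice 1 to 5 before transformation, against 1306, 1269, 1295, 1283 and 1154 in controls 1 to 5. Each mouse before transformation was above each control. Tcf3 rose 1.42-fold before transformation (log2 difference 0.51 ± 0.076 SE, adjusted p = 0.000972), and the other probe sets, 1427764_a_at and 1452542_x_at, rose by 0.50 each (adjusted p = 0.00781 and 0.00286). On 1427764_a_at the signals were 1116, 997, 882, 1016 and 994 in mice 1 to 5 before transformation, against 761.9, 792, 713, 712 and 580 in controls 1 to 5. On 1452542_x_at they were 705, 616, 625, 680.3 and 677 before transformation, against 483, 517, 429, 473 and 430.3 in controls. Neither overlapped. The leading probe set gave 0.50 within mice 1 and 2 (adjusted p = 0.0348), 0.52 within mice 3 and up (adjusted p = 0.0249) and 0.53 in male mice alone (adjusted p = 0.0093). Within mice 1 and 2 the others did not pass (0.44 and 0.40, adjusted p = 0.0665 and 0.126), and within mice 3 and up they did (0.53 and 0.57, adjusted p = 0.0372 and 0.015).

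In lymphomas the leading Tcf3 probe set ran from 1419 through a median of 1502 to 1750, above all controls. The highest was lymphoma 1 on all 3 probe sets. Tcf3 was 1.21-fold higher in lymphomas than in controls on this probe set (log2 difference 0.28 ± 0.078 SE, adjusted p = 0.0101) and 1.44-fold and 1.37-fold higher on the others (adjusted p = 0.0012 and 0.00192). The others ran from 911 through a median of 981 to 1275 and from 572 through 614 to 743 in lymphomas, above all controls. Within mice 1 and 2 the leading probe set gave 0.36 (adjusted p = 0.0447) and within mice 3 and up 0.26 (adjusted p = 0.0272), and both others passed in each set. With a sex term and without lymphoma 4 the leading one did not pass (0.25, adjusted p = 0.0616). Against mice before transformation, 1 of the 3 probe sets passed. The leading one fell by 0.23 on the log2 scale (SE 0.084, adjusted p = 0.0423). It gave -0.14 within mice 1 and 2 (adjusted p = 0.462) and -0.25 within mice 3 and up (adjusted p = 0.0419). The call was lost when any of lymphomas 3, 4, 5, 6 or 8 or mice 1, 4 or 5 before transformation was left out (adjusted p 0.0566 to 0.102) and under quantile normalization (-0.098, adjusted p = 0.349) or median centring (-0.15, adjusted p = 0.357). The others differed by 0.033 and -0.052 (adjusted p = 0.827 and 0.705).

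Tcf4, the E2-2 gene, which is highest in plasmacytoid dendritic cells and also present in B cells and stroma, was lower before transformation on all 5 tested probe sets. The leading one, 1416724_x_at, had signals of 319, 296, 296, 356 and 332 in mice 1 to 5 before transformation, against 440, 448, 589, 493 and 518 in controls 1 to 5. The groups did not overlap on 4 of the 5 probe sets. On 1416723_at the signals were 163, 163, 196, 157 and 208 in mice 1 to 5 before transformation, against 248, 227, 414, 293 and 336 in controls 1 to 5. On 1424089_a_at they were 116, 113, 118, 88.8 and 81.8 before transformation, against 188, 179.8, 187, 142 and 192 in controls. On 1434149_at they were 84.3, 52.9, 89.0, 82.1 and 91.6 before transformation, against 114, 119.5, 159, 106 and 121 in controls. Mouse 2 before transformation was under the floor on this last one. Tcf4 was 1.55-fold lower before transformation on the leading probe set (log2 difference -0.63 ± 0.11 SE, adjusted p = 0.00245), and the log2 differences of the 5 ran from -0.79 to -0.63. With all 3 groups in 1 fit none of the 5 passed (adjusted p 0.0795 to 0.221), nor did any within mice 1 and 2 (adjusted p 0.064 to 0.239). The leading probe set gave -0.70 within mice 3 and up (adjusted p = 0.0164) and -0.74 in male mice alone (adjusted p = 0.00498). Within mice 3 and up 1434149_at did not pass (-0.53, adjusted p = 0.124) and the other 3 did. The dimmer probe sets 1434148_at and 1434149_at lost their calls (adjusted p = 0.0353 and 0.034) when single mice were left out: the first without any mouse but control 2 or mouse 5 before transformation (adjusted p 0.0558 to 0.0859), and the second without control 1, 2, 3 or 5 or mouse 1 or 4 before transformation (adjusted p 0.0549 to 0.0827).

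The lymphomas differed among themselves in Tcf4. The leading probe set ran from 177 (lymphoma 5) through a median of 314 to 432 (lymphoma 2). Lymphoma 5 was the lowest on all 5 probe sets, and the highest was lymphoma 1, 2 or 3 on each. On the leading probe set Tcf4 was 1.62-fold lower in lymphomas than in controls (log2 difference -0.69 ± 0.21 SE, adjusted p = 0.014), while the other 4 differed by -0.80 to -0.35 and did not pass. Without lymphoma 1, 2 or 3, the probe sets 1416723_at (-0.92, -0.92 and -0.90) and 1424089_a_at (-0.80, -0.78 and -0.79) did pass (adjusted p 0.0249 to 0.0386). The leading probe set gave -0.052 within mice 1 and 2 (adjusted p = 0.755) and -0.96 within mice 3 and up (adjusted p = 0.00908). Its call was also lost under median centring (-0.61, adjusted p = 0.0582) and with a sex term and without lymphoma 4 (-0.52, adjusted p = 0.119). Mouse number as a block in the fit ended the call too. Lymphomas did not pass against mice before transformation on any of the 5 (log2 differences -0.062 to 0.29). The plasmacytoid marker Siglech ran from 53.5, the floor, to 113 in lymphomas, from 72.4 to 97 before transformation and from 53.5 to 115 in controls.

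Tcf12, the HEB gene, passed on no probe set before transformation against controls and fell in lymphomas. Its leading probe set, 1427670_a_at, ran from 1138 (lymphoma 6) through a median of 2022 to 2942 (lymphoma 3) in lymphomas. It had signals of 3211, 3237, 3262, 3595 and 3646 in mice 1 to 5 before transformation and of 3043, 2804, 3626, 3406 and 3249 in controls 1 to 5. All lymphomas lay below all mice before transformation, and lymphoma 3 reached into the controls. On this probe set Tcf12 was 1.79-fold lower in lymphomas than before transformation (log2 difference -0.84 ± 0.19 SE, adjusted p = 0.00309) and 1.70-fold lower than in controls (-0.77 ± 0.19 SE, adjusted p = 0.00489). Before transformation it differed from controls by 0.075 ± 0.079 SE (adjusted p = 0.688). Against mice before transformation, the difference was -0.81 within mice 1 and 2 (adjusted p = 0.0151) and -0.87 within mice 3 and up (adjusted p = 0.0278). Against controls it was -0.67 and -0.84 in these sets (adjusted p = 0.0173 and 0.0317). With the sex term and lymphoma 4 left out it was -0.20 (adjusted p = 0.768), a fit in which lymphoma 3, the tumour highest in Tcf12 on 4 of the 5 probe sets, was the only male tumour.

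All 5 Tcf12 probe sets fell in lymphomas against mice before transformation, by different amounts. The log2 differences were -0.71 on 1421908_a_at (adjusted p = 0.0103), -0.73 on 1446294_at (adjusted p = 0.0248), -1.20 on 1439619_at (adjusted p = 0.0062) and -2.47 ± 0.40 SE on 1439209_at (adjusted p = 0.000287). The call on 1446294_at was lost without mouse 3 (adjusted p = 0.0519) or mouse 4 (adjusted p = 0.05) before transformation, within mice 1 and 2 (-1.02, adjusted p = 0.11) and within mice 3 and up (-0.64, adjusted p = 0.0903). The other 4 passed within both sets. On 1439619_at the signal ran from 157 (lymphoma 1) through a median of 204 to 504 (lymphoma 3) in lymphomas. It was 556, 527, 585, 642 and 574 in mice 1 to 5 before transformation, above all lymphomas, and 528, 522, 633, 542 and 332 in controls 1 to 5, where control 5 lay within the lymphoma range. Against controls, 4 of the 5 were lower in lymphomas, and 1446294_at did not pass (-0.43, adjusted p = 0.171). Before transformation 1446294_at differed from controls by 0.31 (adjusted p = 0.102, and 0.0472 without control 5) and 1439209_at by -0.21 (adjusted p = 0.304). The call on 1439619_at in lymphomas against controls (-0.999, adjusted p = 0.0195) was lost without control 3 (adjusted p = 0.0543), within mice 3 and up (-0.73, adjusted p = 0.168) and with a sex term and without lymphoma 4 (-0.79, adjusted p = 0.129). That on 1421908_a_at (-0.68, adjusted p = 0.0109) was lost within mice 3 and up (-0.64, adjusted p = 0.0913) and with the sex term (-0.55, adjusted p = 0.0734). Within mice 1 and 2 both passed (-1.74 and -0.80, adjusted p = 0.00257 and 0.0124).

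The largest fall was on 1439209_at. Its signal was 186, 163, 319, 261, 381, 77.1, 777 and 177 in lymphomas 1 to 8. It was 1280, 1173, 1238, 1708 and 1260 in mice 1 to 5 before transformation and 1464, 1482, 1795, 1531 and 1407 in controls 1 to 5. Every lymphoma was below every thymus, and lymphoma 7 was the highest tumour on this probe set alone. The fall was 5.55-fold against mice before transformation and 6.44-fold against controls (log2 difference -2.69 ± 0.39 SE, adjusted p = 9.1e-05). Against controls it was -3.08 within mice 1 and 2 (adjusted p = 0.00126) and -2.57 within mice 3 and up (adjusted p = 0.0059). Within an array, the log2 signal of 1439209_at minus that of 1427670_a_at averaged -2.99 ± 0.76 in lymphomas, -1.36 ± 0.18 before transformation and -1.07 ± 0.11 in controls (SD, n = 8, 5 and 5). The pair of probe sets therefore fell unequally in lymphomas. The pair was chosen after its values were seen, so the contrast is given with no test, and the files used here do not say which transcripts each probe set reads.

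**Figure D3:**
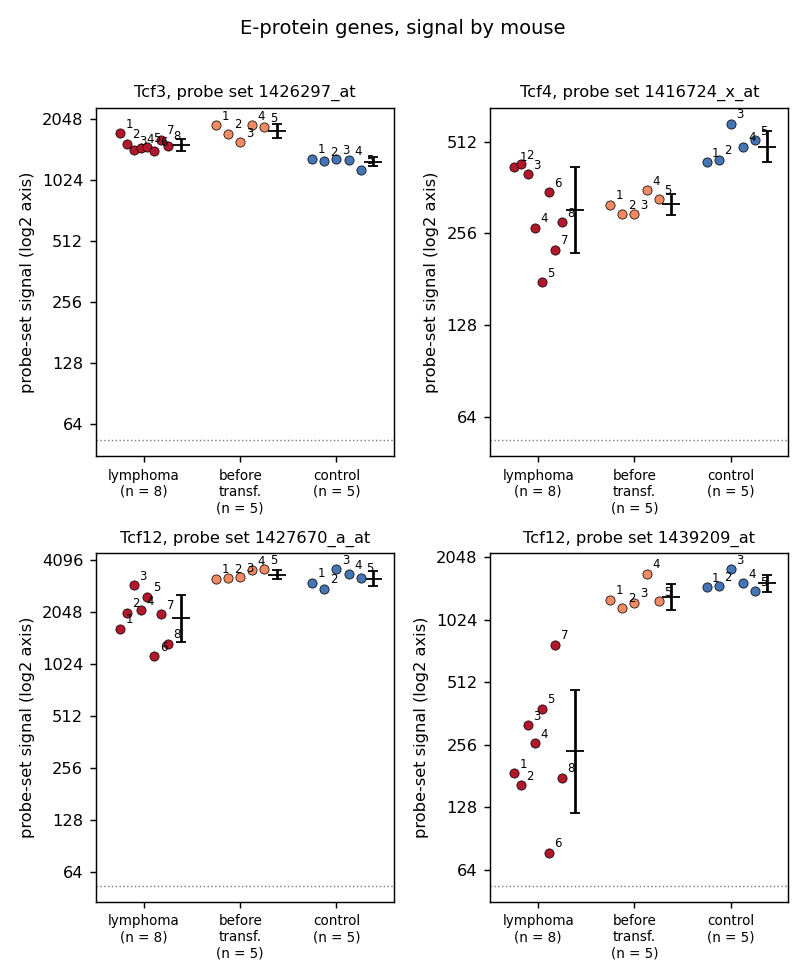
Signal in each mouse (log2 axis) of the leading probe sets of Tcf3, Tcf4 and Tcf12 and of the Tcf12 probe set 1439209_at, with mouse numbers, the mean of log2 signal and its SD as bars, and the floor as a dotted line. Tcf3 is above controls in both other groups, and the 8 lymphomas spread from 77.1 to 777 on 1439209_at, below all thymi.

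Lyl1 and Lmo2 were higher in lymphomas, and Tal1 did not pass in any comparison. Lyl1 and Lmo2 entered the test through lymphomas, with all 8 above the filter, against 2 and 1 mice before transformation and 0 controls each, so their values with no filter are given as well. Lyl1, which pairs with E proteins, ran from 143 (lymphoma 7) through a median of 162 to 206 (lymphoma 6) in lymphomas. It had signals of 65.1, 75.8, 135, 113 and 78.8 in mice 1 to 5 before transformation and of 76.3, 77.8, 96.6, 101 and 104 in controls 1 to 5. All lymphomas were above all thymi of both groups. Lyl1 was 1.85-fold higher in lymphomas than before transformation (log2 difference 0.89 ± 0.18 SE, adjusted p = 0.00132, and 0.00329 with no filter) and 1.84-fold higher than in controls (0.88 ± 0.13 SE, adjusted p = 0.00013, and 0.000248 with no filter). Before transformation it differed from controls by -0.0058 (adjusted p = 0.995). Against controls it was 1.28 within mice 1 and 2 (adjusted p = 0.00771) and 0.67 within mice 3 and up (adjusted p = 0.00378). Against mice before transformation, the difference was 1.42 within mice 1 and 2 (adjusted p = 0.00884), 0.59 within mice 3 and up (adjusted p = 0.0251) and 1.03 without mouse 3 (adjusted p = 0.000422).

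Lmo2, the LIM adaptor, was near the floor of 53.5 in controls and in 4 of 5 mice before transformation. It ran from 119 (lymphoma 7) through a median of 203 to 294 (lymphoma 8) in lymphomas. The signal was 72.8, 52.6, 278, 69.7 and 67.9 in mice 1 to 5 before transformation and 46.8, 55.6, 55.8, 55.6 and 77.8 in controls 1 to 5. Every lymphoma was above every control, and mouse 3 before transformation lay within the lymphoma range. On the floored log2 scale Lmo2 was 1.67 ± 0.22 SE higher in lymphomas than in controls (adjusted p = 4.1e-05, and 0.000266 with no filter), a size that the floor limits, since the controls lie at or near it. It was 1.90 within mice 1 and 2 (adjusted p = 0.00323) and 1.56 within mice 3 and up (adjusted p = 0.00393). Against mice before transformation it was 1.10 ± 0.35 SE higher (adjusted p = 0.0233), a call lost with no filter (adjusted p = 0.0543). Without mouse 3 that difference was 1.52 (adjusted p = 0.000459), while leaving out mouse 1, 2, 4 or 5 before transformation gave 0.93 to 1.04 and ended the call (adjusted p 0.0554 to 0.0638). The difference from mice before transformation was 1.70 within mice 1 and 2 (adjusted p = 0.00826) and 0.74 within mice 3 and up (adjusted p = 0.233). Before transformation against controls, the difference of 0.57 ± 0.37 SE did not pass (adjusted p = 0.455), and without mouse 3 it was 0.15 (adjusted p = 0.655).

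Tal1, the stem-cell leukaemia factor, overlapped in all 3 groups. Its signal ran from 164 through a median of 262 to 293 in lymphomas, from 220 through 238 to 294 before transformation and from 151 through 225 to 304 in controls. The log2 difference was -0.062 ± 0.16 SE in lymphomas against mice before transformation and 0.098 ± 0.18 SE against controls (adjusted p = 0.782 and 0.698).

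**Figure D4:**
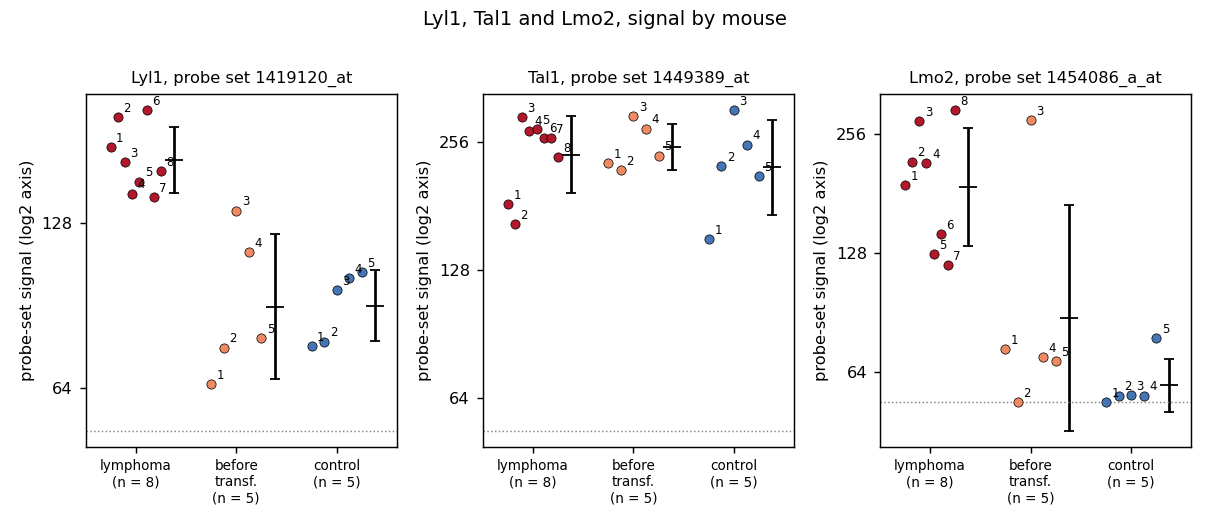
Signal of Lyl1, Tal1 and Lmo2 in each mouse (log2 axis), with mouse numbers, the mean of log2 signal and its SD as bars; values under the floor (dotted line) are drawn at it. The lymphomas lie above all thymi for Lyl1 and above all controls for Lmo2, mouse 3 before transformation has the group's highest Lmo2 signal (278), and Tal1 overlaps.

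Other blood cells and endothelium also express Lyl1 and Lmo2. Most myeloid and stromal markers were higher in lymphomas than in controls, as these genes were. Against mice before transformation, 3 of 7 myeloid markers were higher and 1 lower, and 2 of 5 stromal markers were higher. Endothelial, erythroid and most B-cell markers did not pass or were split. Of 7 myeloid markers, 5 were higher and 2 lower in lymphomas than in controls, with summed signals of 4603 to 16851 in lymphomas, 1699 to 4645 before transformation and 2804 to 4039 in controls. Among them, Lyz2 ran from 2235 to 9499 in lymphomas, from 167 to 1964 before transformation and from 514 to 1025 in controls. Of 5 stromal markers, 4 were higher in lymphomas than in controls, with sums of 764 to 5727 in lymphomas, 773 to 1627 before transformation and 631 to 769 in controls. B-cell and plasmacytoid markers summed to 427 to 5125 in lymphomas, 398 to 2351 before transformation and 845 to 915 in controls, and 1 of 5 tested (Blnk) was higher in lymphomas than in controls. Lymphoma 8, the highest in Lmo2 but not in Lyl1, had the highest myeloid and stromal sums. Lymphoma 1, with an Lmo2 signal of 190, had the lowest myeloid, stromal and B-cell sums of the tumours. Lymphoma 6, the highest in Lyl1, had the highest erythroid sum (1768). Lymphoma 3, with an Lmo2 signal of 276, had the highest B-cell and plasmacytoid sum (5125). Mouse 3 before transformation, with an Lmo2 signal of 278, had its group's highest B-cell (2351) and myeloid (4645) sums. The 4 endothelial markers tested passed in no comparison, with sums of 1064 to 1457, 1182 to 1468 and 1188 to 1459 in lymphomas, mice before transformation and controls, and Tie1 was at the floor in all controls. Of 4 erythroid markers tested, Slc4a1 was higher and Hba-a1 lower in lymphomas than in controls, and the sums ran from 1010 to 1768 in lymphomas, 1131 to 1414 before transformation and 1060 to 1449 in controls. No other marker of these lists was at the floor throughout a group. The part of these cells in the Lyl1, Lmo2 and Tcf4 results was not tested.

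Of 9 measured genes that E proteins are known to activate in thymocytes, 2 rose and 2 fell before transformation against controls, where 4.48% of all probe sets were higher and 5.91% lower. Their median log2 difference was -0.050, against -0.013 over all. Notch1, the receptor that commits cells to the T lineage, fell 4.07-fold (log2 difference -2.03 ± 0.11 SE, adjusted p = 4.24e-07), and Ptcra, which encodes the partner of the T-cell receptor beta chain in precursors, fell 3.45-fold (-1.78 ± 0.11 SE, adjusted p = 1.39e-06). The repressor Gfi1 rose by 0.67 (adjusted p = 0.00363) and the coreceptor Cd4 by 0.55 (adjusted p = 0.0292). The recombinase gene Rag1 differed by -0.23 (adjusted p = 0.213).

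Between lymphomas and mice before transformation, 6 of the 9 fell and 1 rose, where 22% of all probe sets were lower and 14.7% higher. Their median was -1.31, against -0.072 over all. Ptcra was at the floor in all 8 lymphomas and was at least 2.47-fold lower (adjusted p = 2.58e-06). Notch1, at the floor in 5 of 8, was at least 8.97-fold lower (adjusted p = 1.39e-07), and Rag2, at the floor in 5 of 8, was at least 11.2-fold lower (adjusted p = 3.36e-05). Cd4 fell 2.32-fold (adjusted p = 0.000108). Hes1, a Notch target, did not pass (-0.16, adjusted p = 0.571). The gene that rose was Cdkn1a, a cell-cycle inhibitor (4.28-fold, adjusted p = 0.00391), named after its values were seen. Against controls, 6 fell and 2 rose, where 25.4% of all were lower and 15.6% higher, with a median of -2.02, against -0.073 over all. These counts are a description with no test of the list. T-cell markers as a whole were lower in lymphomas, 7 of 7, and their part in the lower target signals was not tested.

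Transcripts of genes in the signals known to set Id gene levels were also measured, not the activity of those signals. Of 11 genes of T-cell receptor and BMP/TGF-beta signalling, 3 rose and 2 fell before transformation against controls. Of all probe sets, 4.48% were higher and 5.91% lower. The median of the 11 was -0.11, against -0.013 over all. Egr1 and Egr2, which carry T-cell receptor signals to Id3, fell, with log2 differences of -1.09 ± 0.21 SE (adjusted p = 0.00528) and -1.34 ± 0.35 SE (adjusted p = 0.0303). Smad5 and Smad1, which carry BMP signals, rose 2.16-fold and 2.33-fold (adjusted p = 0.000171 and 0.000901), and Smad3, which carries TGF-beta signals, rose 1.79-fold (adjusted p = 0.00216). Egr3 did not pass (adjusted p = 1). Between lymphomas and mice before transformation, 2 rose and 3 fell, where 14.7% of all were higher and 22% lower. Their median was -0.63, against -0.072 over all. The shared co-Smad Smad4 fell by 0.63 (adjusted p = 0.000789) and Smad1 differed by -1.96 (adjusted p = 0.00358), Egr3 rose by 0.48 (adjusted p = 0.00269) and Smad3 by 0.69 (adjusted p = 0.0037), and Egr1 differed by -0.061 (adjusted p = 0.862). In lymphomas against controls, 3 rose and 5 fell, where 15.6% of all were higher and 25.4% lower (median -0.74, against -0.073 over all). The list was not tested as a set, and the part of the cell mix in these values was not tested. Smad3 was 2.88-fold higher (adjusted p = 2.13e-06) and Egr2 was 4.41-fold lower (adjusted p = 4.37e-05).

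**Figure D5:**
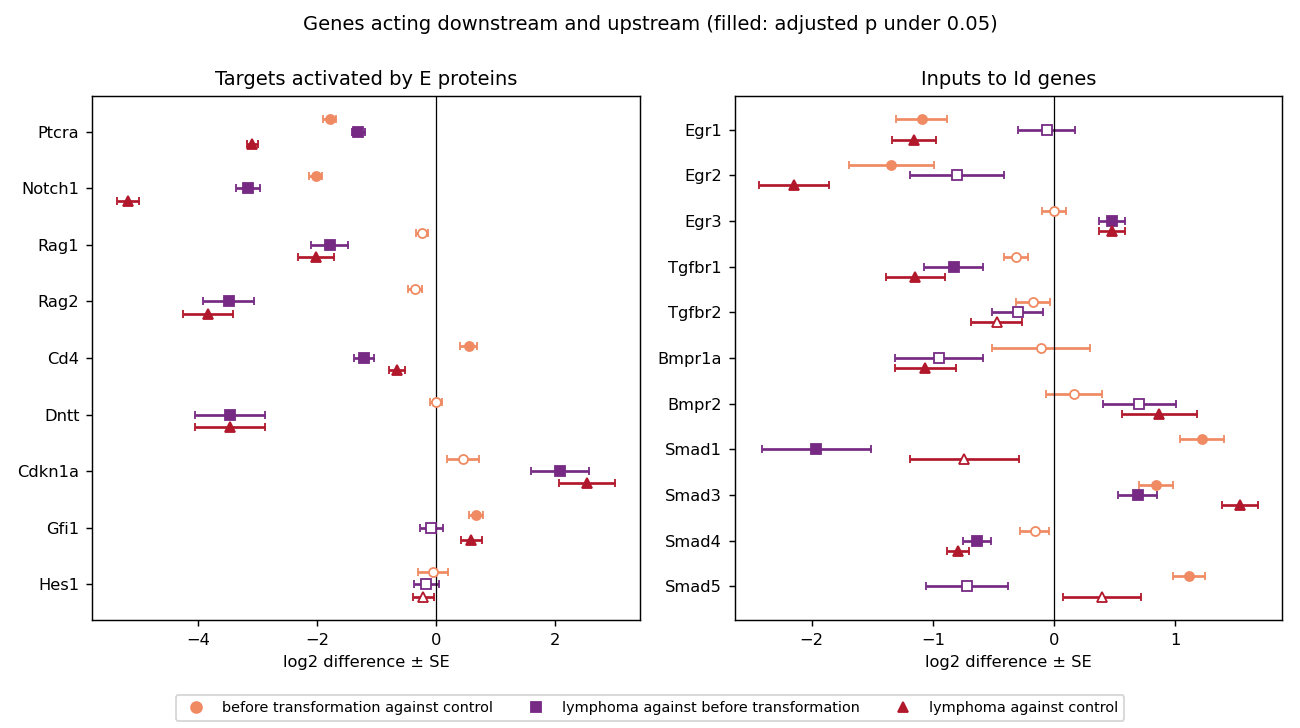
Log2 difference ± SE (x axis) of genes known to be activated by E proteins (left) and of genes known to act on Id gene levels (right), in 3 comparisons marked by colour and shape; filled marks passed. Ptcra and Notch1 lie left of 0 in all 3 comparisons, and Egr1 and Egr2 lie left of 0 in both comparisons against controls.

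Partners and cofactors of the E-protein and LMO complexes passed in lymphomas in a share near that of all probe sets: 6 of 15 in each comparison, against 36.7% and 40.9% of all. Before transformation against controls, 4 of the 15 rose and 1 fell, where 10.4% of all passed (median 0.14). The coactivator Crebbp fell by 0.44 (adjusted p = 0.00774). The LIM-only gene Lmo4 rose by 0.52 (adjusted p = 0.021), and the helix-loop-helix genes Msc and Ascl2 rose by 0.76 (adjusted p = 0.0218) and 0.50 (adjusted p = 0.0376). Runx1 did not pass (0.049, adjusted p = 0.888). Against mice before transformation, 1 rose and 5 fell in lymphomas (median -0.33). Ldb1, which bridges LMO proteins in the complex, fell by 0.87 (SE 0.19, adjusted p = 0.00222), and so did Gata3, the T-lineage GATA factor (log2 difference -0.81 ± 0.15 SE, adjusted p = 0.000834), Crebbp (-0.57, adjusted p = 0.000889) and Ascl2 (-0.33, adjusted p = 0.015). Lmo1, a relative of Lmo2, did not pass (0.54, adjusted p = 0.0966). In lymphomas against controls, 0 rose and 6 fell, while the median of the 15 lay at 0.035. Those that fell included Crebbp (log2 difference -1.02, adjusted p = 1.54e-06) and Ldb1 (-1.10, adjusted p = 0.000349).

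The last list held genes linked to TAL1 and LMO2 in blood-forming cells. Of 6 tested among 9 on the array, 0 passed before transformation against controls (median 0.059), where 10.4% of all probe sets passed. In lymphomas, 1 fell against mice before transformation, where 36.7% of all passed. Against controls 1 rose and 1 fell, where 40.9% of all passed. With 6 genes and no test of the list, these counts are a description. In lymphomas, Erg, an ETS factor, fell by 0.56 against mice before transformation (adjusted p = 0.00945) and differed from controls by -0.57 (adjusted p = 0.0147), and Flt3, a cytokine receptor of progenitors, was 0.76 higher than in controls (adjusted p = 0.012). Kit, a receptor of progenitors, did not pass in either (0.24 and 0.22, adjusted p = 0.317 and 0.318). The medians in lymphomas were 0.17 and 0.13.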

How the data were processed

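Thymus or lymphoma RNA from 18 mice was measured on Affymetrix Mouse 430 arrays. The values are linear probe-set intensities that the authors deposited after analysis with dChip, per the labels' design text. The dChip version, expression model and scaling were not given in the sources used here. Of 811818 values, 9775 were blank and 606 negative, 605 of these on control 1, so control 1 may have been exported differently.

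The members and gene lists were chosen with earlier results of these data known. Probe sets were named by the platform annotation (34945 with 1 gene symbol, 932 with several, 9160 with none). Signals were floored at their 20th percentile (53.5) and log2-transformed. Probe sets above the 40th percentile (109) on at least 5 arrays were tested (29947). Blank values were set to the floor. Each pair of groups was fitted alone with limma 3.58.1 in R 4.3.3 (lmFit, eBayes with an intensity trend) and adjusted by Benjamini-Hochberg over all probe sets tested, with a threshold of 0.05. The procedure was tested on simulated data. With 5 to 8 arrays a group, the number of mice limits the precision.

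A gene's leading probe set is the one with the highest mean over the 18 arrays. All member probe sets are accounted for, and members that passed without overlap in a comparison have their values by mouse, with lymphomas mostly by lowest, median and highest. From each gene list, up to 4 genes of smallest adjusted p and 1 that did not pass are named per comparison. A fold is written "at least" where at least 4 of 8 lymphomas or 3 of 5 thymi were at the floor. The sex of a mouse was read as a signal over 200 of Xist or Eif2s3y. Alternatives were another floor, no floor with an offset of 50, no filter, quantile normalization, median centring, no trend, 1 probe set per gene, all 3 groups in 1 fit, subsets by mouse number and sex, blocks, and leaving out each mouse. They were applied to the totals and the member probe sets, not to the genes of the other lists.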

Additional observations from a re-analysis of the deposited data

Results flagged for a closer look

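Within groups of 5 or 8 mice, 60 sets of floored log2 member signals were searched for a single mouse far from the others. The search found 6, where chance gives about 1 in 20, or 3. Sets from probe sets of 1 gene are not independent. The Tcf3 probe set 1426297_at was lowest in control 5 (1154), with the next control at 1269. The Tcf12 probe set 1439209_at was highest in mouse 4 before transformation (1708), with the next at 1280. The Tcf4 probe set 1424089_a_at was lowest in control 4 (142), with the next at 179.8, and the Tcf4 probe set 1434149_at was lowest in mouse 2 before transformation (52.9, under the floor), with the next at 82.1. Lmo2 was highest in mouse 3 before transformation (278), with the next at 72.8, and in control 5 (77.8), with the next at 55.8. Control 1 lay under the floor for Lmo2 (46.8), so the floor narrowed the spread of the controls in that search. Mouse 3 before transformation also had its group's highest Id3 and Id2 signals and its highest B-cell marker sum (2351, against a group median of 607), and the part of B cells in these values was not tested.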

How the results depend on the processing

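Probe sets that passed numbered 3111 before transformation against controls, 11003 in lymphomas against mice before transformation and 12263 in lymphomas against controls, with 11, 9 and 13 member probe sets. With 1 probe set per gene, the totals were 1479, 4816 and 5619 and the members 4, 4 and 7, since fewer features were tested. With all 3 groups in 1 fit, 1761 probe sets and 6 members passed before transformation against controls. In mice 1 and 2 alone, 4 members passed in that comparison and 7186 probe sets passed in lymphomas against mice before transformation, and in male mice alone 2023 passed before transformation against controls, with fewer mice. With a sex term and lymphoma 4 left out, 1310 probe sets and 0 members passed in lymphomas against mice before transformation. In limma without that covariate 9 members passed. All mice before transformation were male, so with the sex term the group difference rests on lymphoma 3, the only male tumour. Leaving out each mouse gave totals of 2375 to 3323, 8791 to 11547 and 10327 to 13042 and member counts of 9 to 11, 5 to 9 (5 without mouse 4 before transformation) and 12 to 15. Between lymphomas and mice before transformation, calls split into 4413 higher and 6590 lower, against 6213 and 5846 under quantile normalization and 5434 and 5437 under median centring. Against controls they split into 4671 and 7592, against 6739 and 6468 and against 5850 and 6226. The median over all probe sets in lymphomas against controls was -0.073, and 0.027 under quantile normalization, so member differences there are to be read against that shift.

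Whether mouse numbers pair the samples is not settled here. Same-numbered mice of different groups had deviations correlated by -0.14 to 0.38 (mean 0.13), over 0.1 in 8 of 15 pairs. For mice of different numbers the mean was -0.022. With mouse number as a replicate block, 3053, 11515 and 10763 probe sets passed, with 11, 7 and 11 members. In lymphomas against mice before transformation Id1 (adjusted p = 0.114), Tcf3 1426297_at (0.0641) and Tcf12 1446294_at (0.0577) did not pass with it and Id3 did (0.04), and against controls Tcf12 1439619_at (0.0552) and Tcf4 1416724_x_at (0.0626) did not. Under this block the lymphoma against before transformation difference was 0.013 for Tcf4 1416724_x_at and 0.13 for 1416723_at, against -0.062 and -0.053 without it.

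Of the single-probe-set results, 1312 recomputed values kept direction and side of the threshold, 95 lost the call, 20 gained it and 60 changed direction. All that changed direction had not passed as reported, except the Tcf12 probe set 1421908_a_at in lymphomas against mice before transformation, which was 0.0022 with sex as a covariate. The cause of these changes was not tested.

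Before transformation against controls, Lyl1 was 0.0054 with the offset and 0.080 in mice 3 and up, Id1 was 0.051 in mice 3 and up, Tcf12 1421908_a_at was -0.10 in mice 1 and 2, and Tcf12 1427670_a_at and Tal1 were -0.016 and -0.024 both with sex as a covariate and in male mice alone. In lymphomas against mice before transformation, Tcf3 1452542_x_at was 0.025 under quantile normalization, 0.030 under centring and 0.13 in mice 1 and 2. Tal1 was 0.043 under quantile normalization, 0.020 under centring and 0.23 with sex as a covariate. Tcf4 1416724_x_at was 0.020 under centring, 0.48 in mice 1 and 2 and 0.33 with sex as a covariate, and Tcf4 1416723_at was 0.029 under centring, 0.027 with sets of mouse numbers as a block, 0.90 in mice 1 and 2 (adjusted p = 0.0177) and 0.60 with a sex term (adjusted p = 0.612). In mice 3 and up, Id2 was -0.12 and -0.15 on its 2 probe sets and Tcf4 1424089_a_at was -0.022. Tcf3 1427764_a_at was -0.13 with sex as a covariate. In lymphomas against controls, in mice 1 and 2, Tcf4 1416723_at, 1434148_at and 1434149_at were 0.36, 0.17 and 0.072, and Tal1 was -0.091.

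Leaving out each mouse moved some results across 0. Before transformation against controls, these were Id1 (-0.12 to 0.027), Tcf12 1421908_a_at (-0.026 to 0.081) and Lyl1 (-0.15 to 0.11). Against mice before transformation, in lymphomas, these were Id2 (-0.095 to 0.28 and -0.14 to 0.20), Tcf3 1427764_a_at (-0.013 to 0.073), Tcf4 1416724_x_at (-0.13 to 0.051), 1416723_at (-0.18 to 0.11) and 1424089_a_at (-0.017 to 0.24) and Tal1 (-0.11 to 0.015). Tal1 ran from -0.043 to 0.21 in lymphomas against controls. Signals near the floor (Lmo2, Lyl1, Id1, the dimmer Tcf4 probe sets) limit the size that a difference can show.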
